A study of Mus musculus with 22 samples.

Results

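The collagen genes expressed by muscle stem cells were followed across uninjured and regenerating muscle. They were taken as the protein-coding genes whose symbol has the form Col, a type number, the letter a and a chain number, which gave 44 genes of the 43430 in the tables. The cells were skeletal muscle stem cells from the hindlimb of Pax7-zsgreen mice, in which cells expressing Pax7, the transcription factor that defines these stem cells, fluoresce. All 22 libraries carry this genotype, and all mice were perfused with a mild paraformaldehyde fixative before the cells were taken. The 6 groups were uninjured muscle at ZT4 and at ZT16 (3 libraries each), and muscle 1 day or 3 days after injury by cardiotoxin, a snake venom toxin that kills myofibers, each at ZT4 and at ZT16 (4 libraries each). ZT is zeitgeber time, the hours since lights on. Uninjured groups carry a ZT as well, and the labels do not settle whether ZT is the hour of injury or of collection, so every ZT comparison here is between groups by that label. Nothing states that each replicate is its own mouse, so p-values measure the spread between these libraries, which may be technical. Age, sex and the form of the reporter allele are not given in the sources used here.

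Collagens are proteins of the extracellular matrix whose chains wind into a helix of 3 chains. Fibrillar collagens (types I, III and V among others) form the tension-bearing fibers of connective tissue, and type V sets where a fibril starts and how wide it grows. Type IV collagen makes the network of the basement membrane that wraps each myofiber and the stem cell beneath it. Type VI forms beaded filaments that link this membrane to the interstitial matrix, and the multiplexins, types XV and XVIII, sit in the basement membrane zone and carry sugar chains. Quiescent muscle stem cells are known to make part of their own niche: their type V collagen, a Notch target, is a ligand of the calcitonin receptor (Calcr) and keeps them quiescent, and type VI collagen is needed for their self-renewal.

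Library totals ran from 5965957 to 9751536 estimated counts (median 7326406). Levels are given in CPM (counts scaled to a common library size) after scaling of the libraries by the trimmed mean of M-values (TMM), and in TPM, which also accounts for transcript length, wherever genes are compared with each other. Each change is a log2 fold change with its SE, estimated by edgeR's quasi-likelihood test in 1 fit that shares its spread over the 6 groups, and a gene is called changed where the Benjamini-Hochberg adjusted p over all 15084 genes tested is under 0.05. Libraries within a group correlated at 0.9356 to 0.9639 in uninjured ZT4 and 0.9481 to 0.9631 in uninjured ZT16. In the injured groups this ran from 0.9597 to 0.9779, so a shared spread may understate that of the uninjured libraries. Of the 44 collagen genes, 30 passed the filter on low counts. The other 14 (Col2a1, Col4a3, Col4a6, Col6a4, Col6a5, Col9a1, Col9a2, Col9a3, Col10a1, Col11a1, Col22a1, Col23a1, Col25a1 and Col28a1) did not, and stayed at or under 3.61 CPM in every library.

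The summed level of the 44 genes fell and came partly back. In the 6 uninjured libraries it ran from 4898 to 6621 CPM with a median of 6092 CPM. At day 1 the 8 libraries ran from 1148 to 1690 CPM with a median of 1544 CPM. At day 3 the 8 libraries ran from 2673 to 5462 CPM with a median of 3328 CPM. The day 1 libraries lay below all others, while the highest day 3 library, ZT4 replicate 4, lay inside the uninjured range. The mean share of the scaled library was 0.585% in uninjured muscle, 0.148% at day 1 and 0.364% at day 3.

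**Figure D1:**
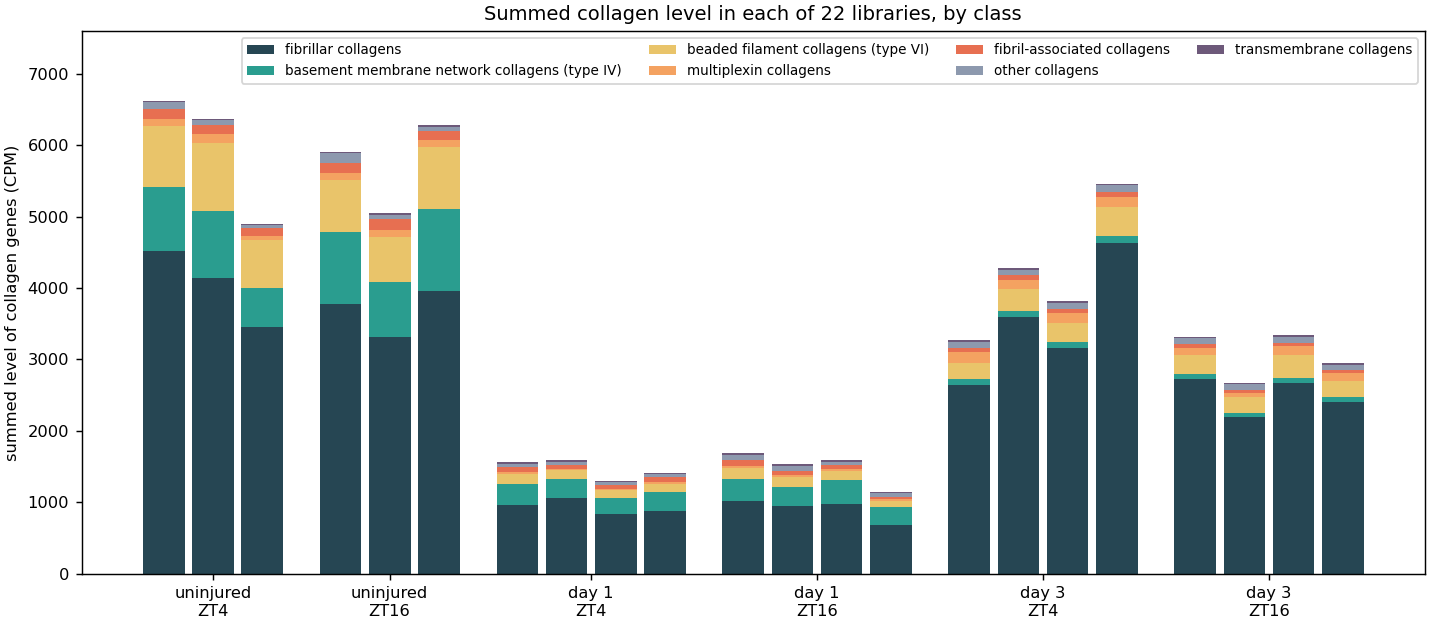
Stacked bars give the summed CPM of the collagen genes in each of the 22 libraries, by class, with the libraries of a group side by side. The fibrillar class (lowest block) leads in every group, and the type IV block shrinks from a median of 925.4 CPM in uninjured muscle to 267.5 CPM at day 1 and 75.55 CPM at day 3.

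The make-up of this sum changed between the states. On the TPM scale, Col3a1 led in all 3 states and held 51.8% of the collagen TPM in uninjured muscle, 40.8% at day 1 and 40.9% at day 3. It was followed in uninjured muscle by Col6a1 with a mean of 223.9 TPM, Col4a1 with 143.9 TPM, Col5a1 with 73.0 TPM and Col5a3 with 63.2 TPM. At day 3 Col1a2 stood next with 193.5 TPM, then Col1a1 with 109.8 TPM, Col6a1 with 51.9 TPM and Col5a2 with 43.4 TPM. The summed fibrillar class had a median of 3871 CPM in uninjured muscle, 954.1 CPM at day 1 and 2699 CPM at day 3. Within it, the means of Col1a1 and Col1a2 went from 54.9 and 40.8 CPM in uninjured muscle to 471.0 and 729.5 CPM at day 3. Against uninjured muscle, 3 of the 9 fibrillar genes tested were higher and 5 lower at day 3. That is 88.9% called, where 76.9% of all genes were. The type VI medians were 789.6, 124.1 and 268.4 CPM in the same order, and type IV fell at each step.

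Most collagen genes were lower at day 1 than in uninjured muscle. Of the 30 tested, 23 fell and 2 rose, where 40.6% of all genes tested fell and 34.6% rose (75.2% changed). The median log2 fold change of the 30 was −1.60, against −0.12 over all genes. At day 3 against uninjured, 18 fell and 10 rose, where 39.1% of all genes fell and 37.9% rose (76.9% changed), with a median of −1.10 against −0.03. Between day 1 and day 3, 20 rose and 6 fell, where 26.7% of all genes rose and 28.7% fell (55.4% changed), with a median of 1.05 against −0.02. The day 1 and day 3 comparisons share the uninjured libraries, so their values are given side by side. By these calls 15 genes fell at day 1 and rose again to day 3, 5 fell at both steps (Col4a1, Col4a2, Col15a1, Col19a1 and Col26a1) and 2 rose at both (Col6a3 and Col13a1). The day 1 call of Col6a3 was lost in 2 alternatives. These are bulk libraries, in which fewer cells of a type and less RNA per cell cannot be told apart.

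**Figure D2:**
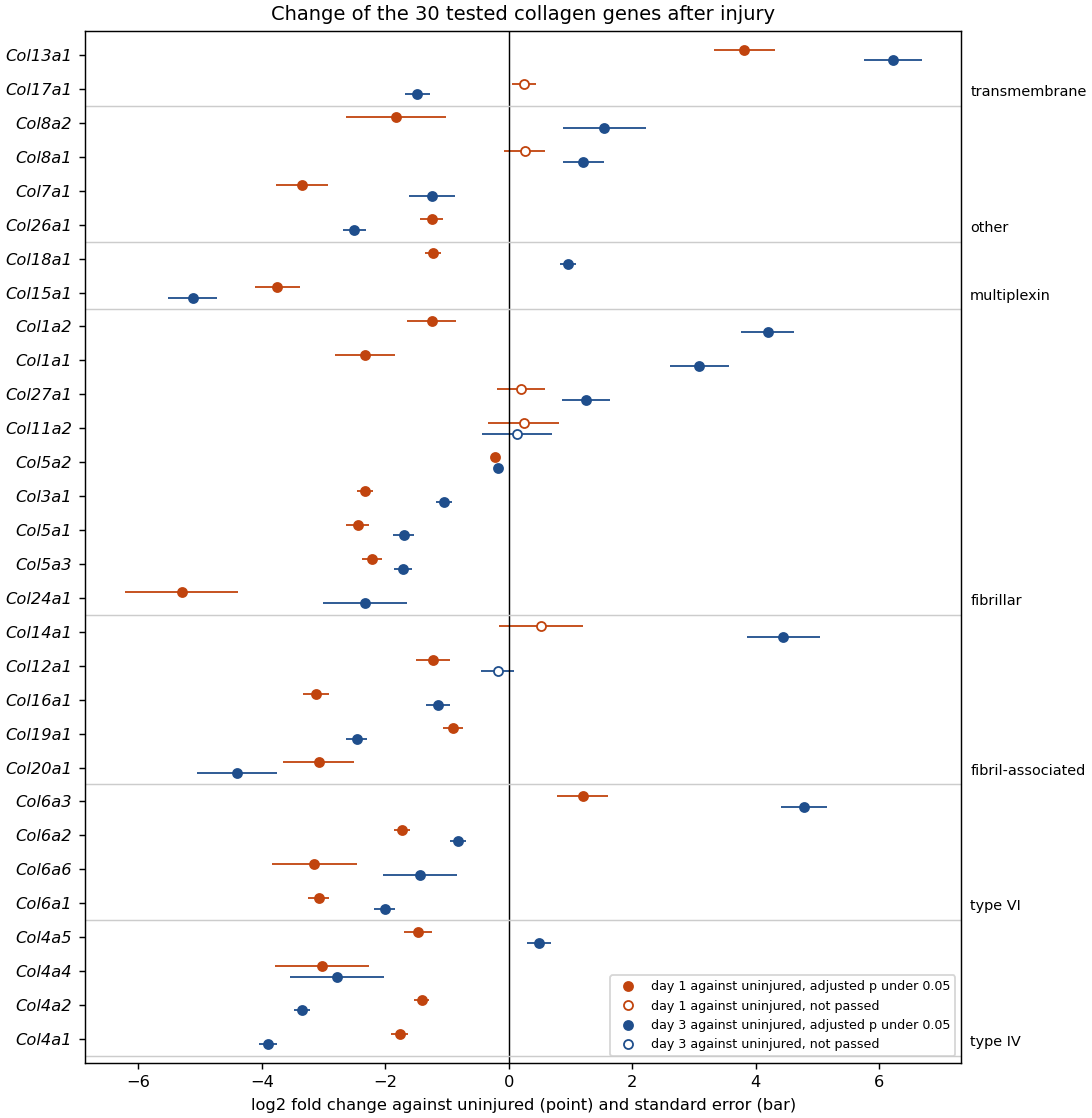
Points give the log2 fold change of each of the 30 tested collagen genes at day 1 (orange) and day 3 (blue) against uninjured muscle, bars give the SE, and open points did not pass the test. At day 1 most points lie left of 0, and at day 3 the classes divide, with Col1a1, Col1a2, Col6a3, Col13a1 and Col14a1 on the far right and Col4a1, Col4a2, Col15a1 and Col20a1 on the far left.

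Among the fibrillar collagens 7 of the 9 tested fell at day 1 and none rose, with a median of −2.22. That is 77.8% called, where 75.2% of all genes were called and 40.6% fell. Col3a1, the single chain of type III collagen (chromosome 1, 45311538 to 45349706, plus strand; GRCm38), ran from 2290 to 3234 CPM in uninjured muscle with a median of 2787 CPM. It ran from 373.6 to 661.7 CPM at day 1 (median 566.3) and from 1015 to 2210 CPM at day 3 (median 1244). The 3 ranges were separate, with day 3 between the other states. The change was −2.33 ± 0.13 at day 1 (adjusted p = 9.65e-13) and −1.05 ± 0.13 at day 3 (adjusted p = 2.30e-07).

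The type I chains took another course. Col1a1 (chromosome 11, 94936224 to 94953042, plus strand) ran from 17.3 to 166.6 CPM in uninjured muscle with a median of 30.1 CPM. At day 1 it ran from 5.75 to 15.7 CPM (median 10.5), and at day 3 from 303.5 to 874.5 CPM (median 395.9). Every day 3 library lay above every other library, and every day 1 library below the uninjured ones. Col1a1 fell at day 1 (−2.33 ± 0.48, adjusted p = 0.000295) and rose at day 3 (3.09 ± 0.48, adjusted p = 1.53e-05). The uninjured maximum was ZT16 replicate 1, and without it the day 1 change was −1.36 (adjusted p = 0.00081). Its partner chain Col1a2 (chromosome 6, 4504814 to 4541544, plus strand) ran from 11.01 to 116.6 CPM in uninjured muscle (median 25.2), from 9.90 to 22.1 CPM at day 1 (median 16.3) and from 517.6 to 984.6 CPM at day 3 (median 720.3). The day 3 libraries again stood clear of the rest, while day 1 and uninjured overlapped. Col1a2 rose by 4.20 ± 0.43 at day 3 (adjusted p = 1.09e-07). Its fall at day 1 (−1.25 ± 0.40, adjusted p = 0.00906) was lost without uninjured ZT16 replicate 1 (−0.51, adjusted p = 0.111). Per length, the ratio of Col1a1 to Col3a1 TPM had a median of 0.00894 in uninjured muscle and 0.267 at day 3, with ranges of 0.00503 to 0.0492 and 0.228 to 0.328 that did not meet.

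The 3 type V chains did not move as a unit. Col5a1, the chain in every type V molecule (chromosome 2, 27886425 to 28039514, plus strand), ran from 276.1 to 585.4 CPM in uninjured muscle, from 43.1 to 101.3 CPM at day 1 and from 93.7 to 220.0 CPM at day 3. Col5a3, the chain of a rarer form (chromosome 9, 20770050 to 20815067, minus strand), ran from 144.1 to 453.5 CPM, from 23.3 to 71.6 CPM and from 58.2 to 95.8 CPM in the same order. In both genes the uninjured libraries lay above all injured ones. Col5a1 changed by −2.45 ± 0.18 at day 1 and −1.70 ± 0.17 at day 3, and Col5a3 by −2.22 ± 0.16 and −1.71 ± 0.15 (largest adjusted p = 2.58e-08). Col5a2, on chromosome 1 (45374321 to 45503282, minus strand), ran from 201.7 to 248.6 CPM, from 161.9 to 218.2 CPM and from 173.9 to 236.7 CPM. Its 3 ranges overlapped, and its changes of −0.22 ± 0.07 (adjusted p = 0.00647) and −0.17 ± 0.07 (adjusted p = 0.0347) were small. The day 1 call was lost without uninjured ZT4 replicate 1 (adjusted p = 0.0798), without uninjured ZT16 replicate 2 (adjusted p = 0.0692) and without uninjured ZT16 replicates 1 and 3 together (−0.01, adjusted p = 0.914), and the day 3 call in 16 alternatives. On the TPM scale the median ratio of Col5a2 to Col5a1 went from 0.705 in uninjured muscle (0.509 to 1.16) to 3.40 at day 1 (2.46 to 6.71) and 2.14 at day 3 (1.24 to 2.40).

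The remaining fibrillar genes were low. Col27a1, a fibrillar chain known from cartilage, ran from 0.287 to 5.45 CPM in uninjured muscle and from 3.86 to 9.28 CPM at day 3 (1.25 ± 0.39, adjusted p = 0.00545). Col24a1 stayed at or under 2.24 CPM and Col11a2 at or under 1.86 CPM. Col24a1 had counts in 1 of 8 day 1 libraries and was called lower at both days, the day 3 call being lost without uninjured ZT16 replicate 2 (adjusted p = 0.0567). Col11a2 was not called at either day (0.24 ± 0.58 and 0.13 ± 0.57).

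**Figure D3:**
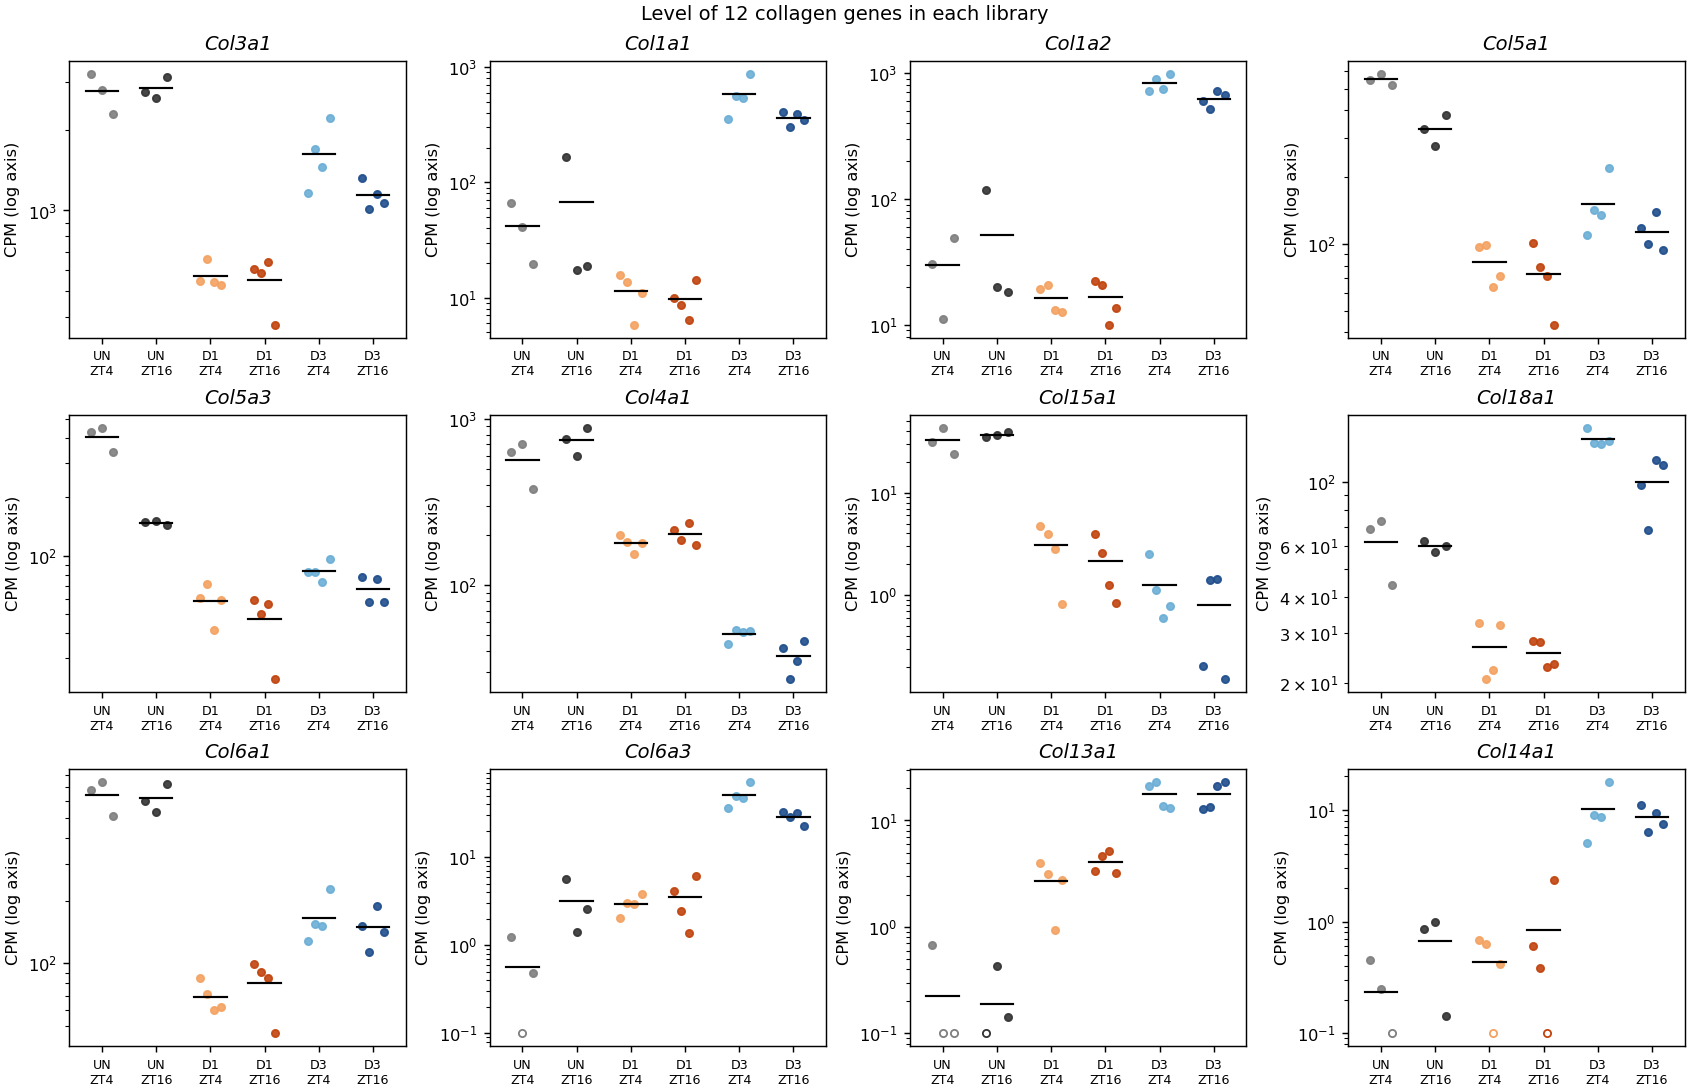
Each panel plots 1 collagen gene in CPM on a log axis against the 6 groups (UN, uninjured; D1 and D3, day 1 and day 3), with a point per library and a line at the group mean; open points at 0.1 CPM mark libraries with 0 counts. Col3a1, Col5a1, Col5a3 and Col6a1 are highest in uninjured muscle, Col4a1 and Col15a1 fall at each step, and Col1a1, Col1a2, Col6a3, Col13a1, Col14a1 and Col18a1 are highest at day 3.

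Type IV collagen had the lowest class median at day 3 (−3.06, after −1.62 at day 1), set by Col4a1, Col4a2 and Col4a4. Col4a1 and Col4a2, the chains of the common type IV network, lie head to head on chromosome 8 (11198423 to 11312826, minus strand, and 11312805 to 11449287, plus strand). Col4a1 ran from 376.1 to 882.0 CPM in uninjured muscle (median 663.0), from 152.5 to 235.6 CPM at day 1 (median 184.6) and from 27.1 to 53.4 CPM at day 3 (median 45.1). Col4a2 ran from 163.3 to 266.3 CPM, from 73.2 to 93.3 CPM and from 14.6 to 31.5 CPM in the same order. All 3 ranges were separate in both genes. Against uninjured muscle Col4a1 changed by −1.77 ± 0.13 at day 1 and −3.90 ± 0.14 at day 3, and Col4a2 by −1.41 ± 0.12 and −3.35 ± 0.13 (largest adjusted p = 1.60e-10). Col4a5, a chain of the minor type IV networks, fell at day 1 from a range of 3.57 to 7.31 CPM to 1.58 to 2.58 CPM (−1.47 ± 0.22, adjusted p = 1.39e-06). At day 3 it ran from 5.89 to 9.58 CPM and was called higher than uninjured (0.49 ± 0.20, adjusted p = 0.0338), a call lost without uninjured ZT4 replicate 3 (0.45, adjusted p = 0.0562), uninjured ZT16 replicate 3 (0.46, adjusted p = 0.0655), day 3 ZT4 replicate 4 (0.47, adjusted p = 0.0519) or day 3 ZT16 replicate 1 (0.44, adjusted p = 0.0667). Col4a4 fell at both days, from 1.28 to 5.88 CPM to at most 1.09 CPM at day 1 and 2.67 CPM at day 3.

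The type VI chains parted. Col6a1 (chromosome 10, 76708792 to 76726168, minus strand) ran from 509.9 to 742.7 CPM in uninjured muscle, from 46.1 to 99.5 CPM at day 1 and from 113.1 to 227.4 CPM at day 3, 3 separate ranges. Col6a2, its neighbour on the same strand (76595762 to 76623630), ran from 98.7 to 212.2 CPM, from 34.8 to 51.9 CPM and from 56.3 to 113.4 CPM, and only its day 3 range met the uninjured one. Col6a1 changed by −3.08 ± 0.17 and −2.01 ± 0.17 and Col6a2 by −1.73 ± 0.13 and −0.83 ± 0.13 at day 1 and day 3 (largest adjusted p = 3.51e-06). Col6a3, the largest chain of the type VI molecule (chromosome 1, 90765923 to 90843971, minus strand), ran from 0 to 5.59 CPM in uninjured muscle (median 1.33), from 1.40 to 6.09 CPM at day 1 (median 2.98) and from 22.3 to 71.9 CPM at day 3 (median 34.4). The day 3 libraries all lay above the rest. The 1 uninjured library without a count allows up to 0.503 CPM (3 counts in the smallest library, counting error only). Col6a3 rose by 4.78 ± 0.37 at day 3 (adjusted p = 9.40e-11) and by 1.2 ± 0.41 at day 1 (adjusted p = 0.0121), the latter lost with effective length offsets (1.06, adjusted p = 0.0886) and with limma voom (1.80, adjusted p = 0.0631). Without uninjured ZT4 replicate 1 the day 1 rise was 2.01 (adjusted p = 0.00143). The day 1 and uninjured ranges overlapped. At ZT4 the Col6a3 mean was 0.574 CPM in uninjured muscle and 2.965 CPM at day 1, and at ZT16 it was 3.19 and 3.51 CPM. Per length, the ratio of Col6a3 to Col6a1 TPM had a median of 0.00414 in uninjured muscle (0 to 0.00956), 0.0439 at day 1 (0.0120 to 0.122) and 0.176 at day 3 (0.147 to 0.251), with no overlap between states. That of Col6a1 to Col6a2 went from 4.53 (3.28 to 5.39) to 1.67 (1.38 to 2.08) and 1.93 (1.44 to 2.47). Col6a6, a chain that can stand in for Col6a3, stayed at or under 6.57 CPM and was called lower at both days, the day 3 call being lost in 14 of the alternatives.

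The 2 multiplexins moved in opposite directions at day 3. Col15a1 (chromosome 4, 47208161 to 47313167, plus strand) ran from 23.9 to 43.1 CPM in uninjured muscle (median 35.8), from 0.827 to 4.77 CPM at day 1 (median 2.69) and from 0.151 to 2.51 CPM at day 3 (median 0.95). All injured libraries lay below the uninjured ones, and the changes were −3.75 ± 0.36 (adjusted p = 2.46e-09) and −5.12 ± 0.40 (adjusted p = 6.39e-11). Col18a1, whose C-terminal fragment is endostatin (chromosome 10, 77052178 to 77166548, minus strand), ran from 44.1 to 73.5 CPM in uninjured muscle, from 20.7 to 32.3 CPM at day 1 and from 68.3 to 154.6 CPM at day 3. It fell at day 1 (−1.22 ± 0.13, adjusted p = 8.51e-09) and rose at day 3 (0.96 ± 0.13, adjusted p = 3.12e-07), where 1 library, ZT16 replicate 2, lay within the uninjured range.

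The fibril-associated collagens, which decorate the surface of fibrils, showed 4 falls among the 5 tested at day 1. That is 80.0% called, where 75.2% of all genes were called and 40.6% fell. Col16a1 ran from 18.8 to 33.9 CPM in uninjured muscle, from 1.79 to 4.10 CPM at day 1 and from 7.80 to 18.0 CPM at day 3 (−3.13 ± 0.21 and −1.15 ± 0.19). Col19a1, a chain known from differentiating muscle, ran from 60.4 to 118.1 CPM, from 21.9 to 57.6 CPM and from 10.8 to 18.6 CPM (−0.90 ± 0.16 and −2.46 ± 0.17). In both genes the 3 ranges were separate. Col12a1 ran from 5.28 to 25.7 CPM, from 2.63 to 11.6 CPM and from 10.04 to 21.0 CPM, fell at day 1 (−1.23 ± 0.27, adjusted p = 0.000313) and did not pass at day 3 (−0.18 ± 0.27). Its day 1 call was lost when uninjured ZT16 replicates 1 and 3 were left out together (−0.46, adjusted p = 0.201). Col14a1, which binds fibrils through decorin, stayed at or under 1.00 CPM in uninjured muscle and 2.35 CPM at day 1, and ran from 5.02 to 17.8 CPM at day 3 (4.45 ± 0.59, adjusted p = 2.48e-07). Its 8 day 3 libraries lay above all others. Col20a1 ran from 1.58 to 5.71 CPM in uninjured muscle and at most 0.525 CPM at day 3, and fell at both days.

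Of the 2 transmembrane collagens tested, Col13a1 rose at each step. It is a collagen of the cell surface known from the neuromuscular junction and lies on chromosome 10 (61838236 to 61979108, minus strand). It had no counts in 3 of 6 uninjured libraries and at most 0.678 CPM in the others. It ran from 0.933 to 5.21 CPM at day 1 and from 12.7 to 23.1 CPM at day 3, and the 3 ranges were separate. The changes were 3.82 ± 0.50 (adjusted p = 2.52e-07) and 6.22 ± 0.47 (adjusted p = 1.34e-11). The 3 uninjured libraries with counts had 6, 3 and 1, and without uninjured ZT4 replicate 1 the day 1 change was 5.87. Col17a1, known as a collagen of the hemidesmosome, ran from 12.3 to 16.6 CPM in uninjured muscle and from 12.5 to 21.7 CPM at day 1 (0.25 ± 0.19, not passed). It ran from 2.08 to 7.70 CPM at day 3, below all other libraries (−1.48 ± 0.20, adjusted p = 2.81e-07; −0.93 with effective length offsets).

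The last class holds the short chain, anchoring and type XXVI collagens, of which 4 were tested. Col8a1, a short chain collagen of vessel walls and injured tissue, ran from 12.98 to 83.4 CPM in uninjured muscle, from 19.9 to 61.3 CPM at day 1 and from 53.4 to 86.5 CPM at day 3. The uninjured maximum was again ZT16 replicate 1. Col8a1 rose at day 3 (1.21 ± 0.33, adjusted p = 0.00283; 1.90 without that library), and at day 1 it did not pass (0.26 ± 0.33). It passed at day 1 without that library (0.92, adjusted p = 0.00031), without uninjured ZT16 replicates 1 and 3 together (0.99, adjusted p = 0.00161), and with no filter on low counts (0.38, adjusted p = 0.0053). Col26a1 ran from 20.03 to 55.3 CPM, from 13.1 to 21.1 CPM and from 3.75 to 9.66 CPM (−1.25 ± 0.18 and −2.50 ± 0.19). Col7a1, which anchors the epidermal basement membrane, ran from 4.18 to 9.60 CPM, from 0 to 1.87 CPM and from 1.54 to 3.48 CPM. It fell at both days (−3.35 ± 0.42 and −1.24 ± 0.37), the day 3 call being lost with effective length offsets (−1.03, adjusted p = 0.125). Col8a2 stayed at or under 5.02 CPM. It was called lower at day 1 (−1.83, adjusted p = 0.043) and higher at day 3 (1.55, adjusted p = 0.0392). These calls were lost in 14 and 12 of the alternatives.

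Other cells in a sort can carry collagen transcripts, so marker genes of other cell types were measured beside these results. Of 12 genes used as markers of fibro-adipogenic cells and fibroblasts, the main collagen makers of muscle, 2 were higher and 7 lower at day 1 than in uninjured muscle, and 6 higher and 4 lower at day 3. That is 75.0% and 83.3% called, where 75.2% and 76.9% of all genes were. Pdgfra, the defining surface marker, had a mean of 1.08 CPM in uninjured muscle and 14.2 CPM at day 3 (3.74 ± 0.68), and Lum a mean of 6.11 and 29.5 CPM (2.28 ± 0.28). Dpt fell from 386.5 to 9.19 CPM and Gsn from 2981 to 296.7 CPM. The summed level of the list ran from 3516 to 4448 CPM in uninjured muscle, from 747.4 to 1317 CPM at day 1 and from 663.7 to 1071 CPM at day 3, with no gene at 0 in a whole state. Gsn made up most of this sum in uninjured muscle. The median log2 fold change of the 12 genes was −0.64 at day 1 and 0.76 at day 3. Of 6 tenocyte markers 1 rose and 3 fell at day 1, and 2 rose and 1 fell at day 3 (66.7% and 50.0% called). Scx rose from a mean of 14.7 to 82.9 CPM at day 3, and Tnmd had 0.683 and 1.60 CPM. The 6 genes summed to means of 38.2 CPM in uninjured muscle, 32.8 CPM at day 1 and 122.0 CPM at day 3. Scx made up most of the day 3 sum. The 10 macrophage and monocyte markers summed to 17.7 to 92.9 CPM in uninjured muscle, the maximum being ZT16 replicate 1, to 1280 to 4177 CPM at day 1 and to 266.8 to 947.3 CPM at day 3. The 10 muscle stem cell markers summed to 7126 to 10380 CPM, 3795 to 5065 CPM and 3143 to 3688 CPM. Of the 5 Schwann cell markers tested, all 5 fell at day 1 (median −2.36) and 4 fell at day 3 (100% and 80.0% called). The summed list of 6 ran from 30.2 to 109.1 CPM in uninjured muscle and from 8.52 to 18.3 CPM at day 1. It ran from 12.2 to 19.6 CPM at day 3. Of the 8 mural markers 6 fell at each day and 1 rose at day 3 (75.0% and 87.5% called). Their sum had a median of 736.2 CPM in uninjured muscle, 385.8 CPM at day 1 and 350.6 CPM at day 3. Of 10 myofiber markers 9 fell and 1 was not called at day 1, where 75.2% of all genes were called and 40.6% fell. At day 3, 5 rose, 3 fell and 2 were not called (80.0% called, where 76.9% of all genes were). Their sum ran from 703.7 to 1812 CPM in uninjured muscle and from 157.7 to 990.6 CPM at day 1. It ran from 1161 to 2883 CPM at day 3. The 8 endothelial markers summed to 20.4 to 75.4 CPM, 26.2 to 97.6 CPM and 14.2 to 28.3 CPM, and the 6 neutrophil markers to 0 to 3.71 CPM, 29.2 to 308.2 CPM and 6.40 to 16.4 CPM. The part of any of these cells in the collagen changes was not tested.

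Genes that handle collagen were read from 3 lists. Of 20 genes for folding, modification and secretion 19 were tested, of which 4 rose and 6 fell at day 1, and 6 rose and 10 fell at day 3. The share called was 52.6% at day 1, where 75.2% of all genes were, and 84.2% at day 3, where 76.9% were. Serpinh1, the collagen-specific chaperone HSP47, ran from 146.1 to 554.6 CPM in uninjured muscle, from 228.3 to 351.7 CPM at day 1 and from 498.3 to 711.9 CPM at day 3. It did not pass at day 1 (−0.20 ± 0.24) and rose at day 3 (0.87 ± 0.24, adjusted p = 0.00327). P4ha2, a catalytic subunit of prolyl 4-hydroxylase, fell from a mean of 95.8 CPM to 36.6 CPM at day 1 and 14.3 CPM at day 3 (−1.36 ± 0.11 and −2.72 ± 0.12). Its partner subunit P4hb rose at both days (0.63 ± 0.07 and 0.44 ± 0.06), as did the prolyl isomerase gene Ppib (0.69 ± 0.07 and 1.04 ± 0.07). The lysyl hydroxylase gene Plod3 rose at day 1 (0.55 ± 0.08) and did not pass at day 3 (0.15 ± 0.08).

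Of 13 genes for processing and crosslinking, 2 rose and 5 fell at day 1, and 7 rose and 4 fell at day 3. The share called was 53.8% at day 1 and 84.6% at day 3, against the same 75.2% and 76.9% of all genes. Bmp1, the procollagen C-proteinase, ran from 259.6 to 346.6 CPM in uninjured muscle, from 44.3 to 67.7 CPM at day 1 and from 41.1 to 57.5 CPM at day 3 (−2.42 ± 0.08 and −2.68 ± 0.08). Adamts14, a procollagen N-proteinase, went the other way, from 10.4 to 16.5 CPM to 90.4 to 112.2 CPM and 67.5 to 80.8 CPM (2.92 ± 0.11 and 2.41 ± 0.10). In both genes the uninjured libraries were separate from all others. Sparc, a collagen-binding matrix protein, fell by 1.25 and 1.23 on the log2 scale (SE 0.07 each), and the crosslinking enzyme gene Loxl1 by 1.60 and 1.84 (SE 0.13 each).

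Of 12 genes for collagen receptors and uptake 10 were tested, of which 3 rose and 4 fell at each day. The 70.0% called at each day was below the share of all genes. Calcr, the receptor that type V collagen engages in the quiescent niche, ran from 149.3 to 311.9 CPM in uninjured muscle. It ran from 7.89 to 33.2 CPM at day 1 and from 1.81 to 5.02 CPM at day 3, and the 3 ranges were separate (−3.25 ± 0.22 and −6.20 ± 0.26). Beside it, Col5a1 and Col5a3 were higher at day 3 than at day 1 (0.74 ± 0.16 and 0.51 ± 0.15), whereas Calcr was lower (−2.95 ± 0.26). Mrc2, the uptake receptor Endo180, fell at both days (−1.38 ± 0.14 and −3.64 ± 0.16), and so did the collagen receptor kinase gene Ddr1 (−0.95 ± 0.10 and −0.37 ± 0.10). Lair1, an inhibitory collagen receptor of immune cells, rose from a mean of 0.488 CPM to 7.36 CPM at day 1 and 3.46 CPM at day 3 (4.19 ± 0.52 and 3.13 ± 0.53). It moved with the macrophage and monocyte sums given above, and their part in it was not tested.

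In uninjured muscle the collagens were compared between ZT16 and ZT4. Only 3 of the 30 tested were called, 1 higher and 2 lower at ZT16, where 17.7% of all genes were called. Col5a3 had 429.3, 453.5 and 341.0 CPM in the 3 ZT4 libraries and 148.6, 150.0 and 144.1 CPM in the 3 ZT16 libraries. The ZT4 values were all more than the ZT16 values, and the change was −1.47 ± 0.23 (adjusted p = 0.000237). It passed in all alternatives, with adjusted p up to 0.0489. Col5a1 had 550.8, 585.4 and 522.5 CPM at ZT4 and 329.4, 276.1 and 380.1 CPM at ZT16. Its ranges were separate too, but it just missed the threshold (−0.75 ± 0.26, adjusted p = 0.0525) and passed in 4 alternatives, DESeq2 among them (−0.77, adjusted p = 0.0159). Col5a2 ran from 201.7 to 237.2 CPM at ZT4 and from 209.4 to 248.6 CPM at ZT16 and was not called. The median TPM ratio of Col5a3 to Col5a1 was 1.08 at ZT4 (0.906 to 1.08) and 0.619 at ZT16 (0.508 to 0.754).

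Col6a2 was also lower at ZT16, with 174.3, 212.2 and 153.2 CPM at ZT4 and 113.6, 98.7 and 140.7 CPM at ZT16 (−0.61 ± 0.20, adjusted p = 0.0324). Col6a3 was higher, with 1.24, 0 and 0.481 CPM at ZT4 and 5.59, 1.43 and 2.56 CPM at ZT16 (2.38 ± 0.67, adjusted p = 0.0163). Neither call held without uninjured ZT4 replicate 2 (Col6a2: −0.49, adjusted p = 0.136; Col6a3: 1.78, adjusted p = 0.0693) or ZT16 replicate 1 (−0.59, adjusted p = 0.10; 1.70, adjusted p = 0.143). Col6a2 was also lost without ZT16 replicate 2 (−0.53, adjusted p = 0.105) and Col6a3 without ZT4 replicate 3 (2.27, adjusted p = 0.0548). Of 8 markers of mural cells, the contractile cells of vessels, 2 (Acta2 and Tagln) were lower at ZT16 and 6 were not called, with a median of 0.20. The 8 genes summed to 796.9 to 1223 CPM at ZT4 and 393.6 to 675.4 CPM at ZT16, with none at 0. This sum was led by Acta2 (mean 713.6 and 330.6 CPM) and Tagln (240.1 and 76.5 CPM), while the defining pericyte genes Rgs5 (22.4 and 37.5 CPM) and Pdgfrb (6.07 and 11.7 CPM) had higher means at ZT16. The part of mural cells was not tested. Of the genes that handle collagen, 3 of the folding list rose and 2 fell at ZT16 of uninjured muscle, 2 of the processing list rose and 4 fell, and 1 of the receptor list rose. These are 26.3%, 46.2% and 10% of the genes tested, where 17.7% of all genes were called. Sparc (−0.62 ± 0.11) and Loxl1 (−1.21 ± 0.19) were lower at ZT16, and P4ha2 (0.65 ± 0.17) and Mrc2 (0.83 ± 0.21) higher. Calcr was not called (0.28 ± 0.30).

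The sequence upstream of the type V starts was read for motifs. Promoter windows were from RefSeq (GRCm38.p6), and the 250 bases before the start were searched on both strands for CACGTG, the E-box of the clock activators, CAGCTG, an E-box of myogenic factors, TATAAA, the TATA box, and TGGGAA, the core of the site of the Notch effector RBPJ. No searched motif overlapped another in the windows printed, and motif matches stand in capitals. The windows of Col5a1 (chr2:27886175-27886424, plus strand) and Col5a3 (chr9:20815068-20815317, minus strand) are shown because Col5a3 was called between the times and Col5a1, the partner chain, had separate ranges without passing the test.
Col5a1: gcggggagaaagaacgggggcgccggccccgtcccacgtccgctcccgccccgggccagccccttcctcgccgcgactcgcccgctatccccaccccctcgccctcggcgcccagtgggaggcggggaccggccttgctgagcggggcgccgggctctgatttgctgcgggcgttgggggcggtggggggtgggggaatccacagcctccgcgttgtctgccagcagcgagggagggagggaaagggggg
Col5a3: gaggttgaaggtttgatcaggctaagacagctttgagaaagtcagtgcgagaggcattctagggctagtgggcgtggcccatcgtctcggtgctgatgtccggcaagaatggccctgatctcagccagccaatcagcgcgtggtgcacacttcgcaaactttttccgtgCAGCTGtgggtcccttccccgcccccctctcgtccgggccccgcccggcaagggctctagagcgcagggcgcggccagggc
Col5a3 holds CAGCTG and Col5a1 none of the 4. Windows were at hand for 35 of the 44 genes (38 windows). CACGTG was in none of them and in 6.02% of all 32851 windows. CAGCTG was in 6 of the 38 and 13% of all, TATAAA in 5 and 12.4%, and TGGGAA in 12 and 21.6%. For the 2 genes called higher at both steps, Col6a3 (chr1:90843972-90844221, minus strand; its day 1 call lost in 2 alternatives) and Col13a1 (chr10:61979109-61979358, minus strand), the windows read as follows.
Col6a3: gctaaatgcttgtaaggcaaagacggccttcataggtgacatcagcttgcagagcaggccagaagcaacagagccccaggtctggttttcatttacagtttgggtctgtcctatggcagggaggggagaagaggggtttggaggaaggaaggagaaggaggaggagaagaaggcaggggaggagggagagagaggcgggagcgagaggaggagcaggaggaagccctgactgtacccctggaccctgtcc
Col13a1: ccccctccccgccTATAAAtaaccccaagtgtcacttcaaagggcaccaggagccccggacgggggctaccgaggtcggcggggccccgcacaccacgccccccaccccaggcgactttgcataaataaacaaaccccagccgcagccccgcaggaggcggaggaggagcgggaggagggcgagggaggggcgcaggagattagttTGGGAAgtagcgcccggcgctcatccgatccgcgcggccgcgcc
Col13a1 holds TATAAA and TGGGAA, and Col6a3 none of the 4. A match is a description of the letters and not of binding, and the absence of one says only that the letters are not in these bases.

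After injury no collagen gene was called between the times. At day 1 edgeR called 0 of 30, where 0.0% of all genes were called, with 1 collagen gene at an unadjusted p under 0.05, as were 920 of the 15084 genes tested. At day 3 it called 0 of 30, where 0.0% of all genes were called, with 7 at an unadjusted p under 0.05, as were 1003 of the 15084 genes tested. At day 3, 25 of the 30 were negative with a median of −0.36, against 0.00 over all genes. DESeq2 and limma voom also called 0 on both days. Col5a3 had 60.8, 71.6, 41.7 and 59.4 CPM at ZT4 and 59.0, 50.6, 56.8 and 23.3 CPM at ZT16 of day 1, overlapping ranges (−0.30 ± 0.21). At day 3 it had 82.9, 82.3, 73.1 and 95.8 CPM at ZT4 and 77.6, 58.2, 75.97 and 58.2 CPM at ZT16 (−0.31 ± 0.20). Col3a1 had 1161, 1688, 1458 and 2210 CPM at day 3 ZT4 and 1326, 1015, 1147 and 1064 CPM at day 3 ZT16 (−0.52 ± 0.17, adjusted p = 0.692), and Col6a3 had 35.8, 49.6, 47.4 and 71.9 CPM and 33.0, 28.8, 31.7 and 22.3 CPM (−0.82 ± 0.35, adjusted p = 0.734).

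**Figure D4:**
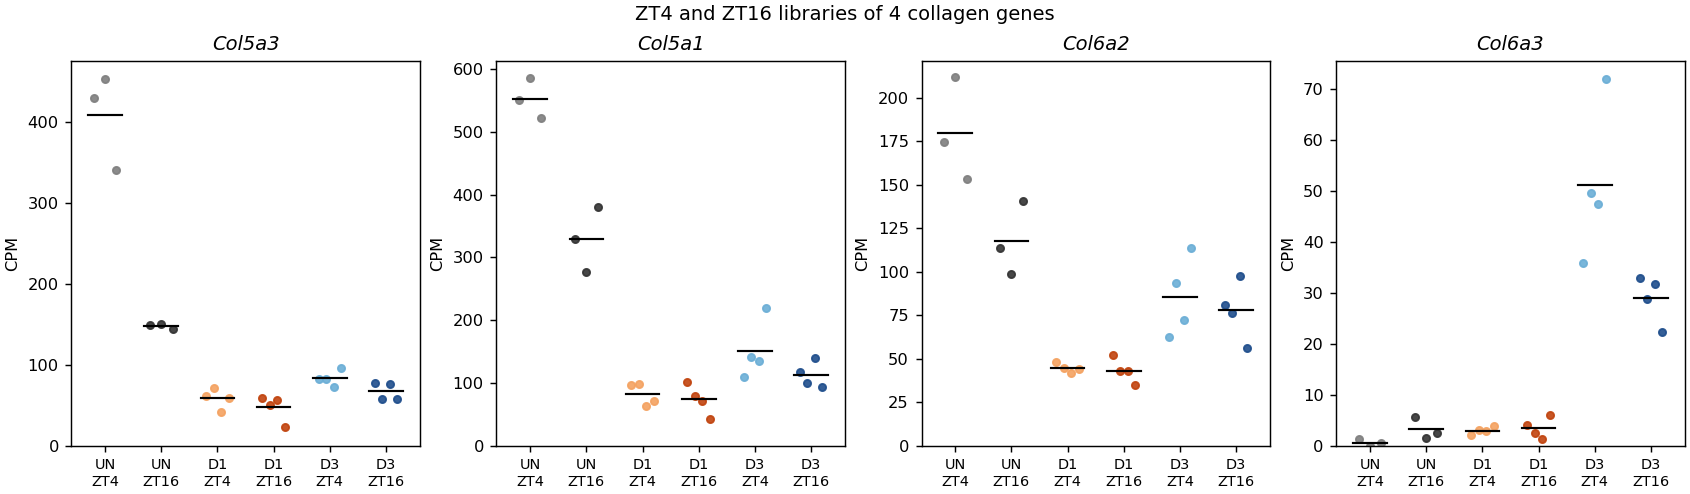
CPM of Col5a3, Col5a1, Col6a2 and Col6a3 on linear axes from 0, by group (UN, uninjured; D1 and D3, days 1 and 3), with a point per library and a line at the group mean. The uninjured Col5a3 libraries sit at 341.0 to 453.5 CPM at ZT4 and at 144.1 to 150.0 CPM at ZT16, while the ZT4 and ZT16 points of Col5a3 at day 1 and at day 3 overlap.

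The time difference was then compared between states by an interaction term. At day 1 against uninjured, 1 of 30 collagen genes was called, where 7.46% of all genes were. At day 3 against uninjured, 3 of 30 were called, where 12.8% of all genes were. For Col5a3 the log2 difference between ZT16 and ZT4 was more positive by 1.17 ± 0.31 at day 1 (adjusted p = 0.0255) and by 1.16 ± 0.31 at day 3 (adjusted p = 0.0157) than in uninjured muscle. The Col6a3 difference was more negative at day 3 by 3.20 ± 0.76 on the log2 scale (log2 −3.20, adjusted p = 0.00719), and that of Col4a1 by 0.83 ± 0.27 (log2 −0.83, adjusted p = 0.0422). None of the 4 calls held when uninjured ZT16 replicates 1 and 3 were left out together, which left 1 library in that group and moved Col5a3 by no more than 0.01 (adjusted p = 0.245 and 0.174). Col6a3 was also lost without uninjured ZT16 replicate 1 (−2.52, adjusted p = 0.0511). Col5a3 at day 1 was lost without day 1 ZT16 replicate 3 (adjusted p = 0.0525), uninjured ZT4 replicate 2 (adjusted p = 0.0614), or uninjured ZT16 replicate 1 (adjusted p = 0.0612) or 3 (adjusted p = 0.0622). Col4a1 was lost in 13 alternatives, 9 of which left out a single library: day 3 ZT4 replicates 2, 3 and 4, day 3 ZT16 replicates 2 and 3, uninjured ZT4 replicates 1 and 3, and uninjured ZT16 replicates 1 and 3.

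Transcript shares were read for the 3 genes with at least 20 CPM on average and a transcript at a mean share of 10 to 90% of the gene's estimated counts. The share is RSEM's estimate, since most reads fit several transcripts. Col18a1 is known to be made from 2 promoters. Its transcript Col18a1-202 starts at 77166548 on chromosome 10, upstream of Col18a1-201 and Col18a1-203, which start at 77113946 and 77113705. Col18a1-202 held 45.2, 59.0 and 50.2% of the gene's counts in uninjured ZT4 and 50.8, 41.6 and 59.4% in uninjured ZT16 libraries. At day 1 it held 54.0, 46.7, 0.042 and 37.4% at ZT4 and 48.3, 72.9, 67.5 and 69.0% at ZT16. At day 3 all 8 libraries lay between 93.3 and 98.7%, above every other library. The mean was 51% ± 7.16 (SD, n = 6) in uninjured muscle, 49.5% ± 23.5 (SD, n = 8) at day 1 and 95.1% ± 1.69 (SD, n = 8) at day 3. The day 3 difference of 44.1 percentage points had p = 0.000666 by the exact two-sided permutation test, the smallest the design allows (adjusted p = 0.00133 over 6 tests), and the day 1 difference of −1.56 points had p = 0.949. The mean share of Col18a1-201 was 31.5% in uninjured muscle and 1.33% at day 3.

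Col6a2-201 held 80.5 to 87.2% in uninjured muscle, 77.6 to 90.8% at day 1 and 88.2 to 97.9% at day 3. All day 3 libraries were above all uninjured ones (difference 9.34 points, exact permutation p = 0.000666, adjusted p = 0.00133), and day 1 did not differ beyond its spread (1.25 points, exact permutation p = 0.552). Col19a1-202 held 81.2 to 96.7% in uninjured muscle and 40.4 to 78.8% at day 1, with no overlap (difference −32.0 points, exact permutation p = 0.000666, adjusted p = 0.00133). At day 3 it held 47.8 to 92.7%, overlapping both (−17.7 points, exact permutation p = 0.028, adjusted p = 0.042), a call lost with shares of TPM (−18.1 points, adjusted p = 0.0809) and without any of 9 single libraries. Col19a1-201 starts at 24587411 on chromosome 1, close to the start of Col19a1-202 at 24587472, and its mean share was 3.71% in uninjured muscle and 33.0% at day 1.

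**Figure D5:**
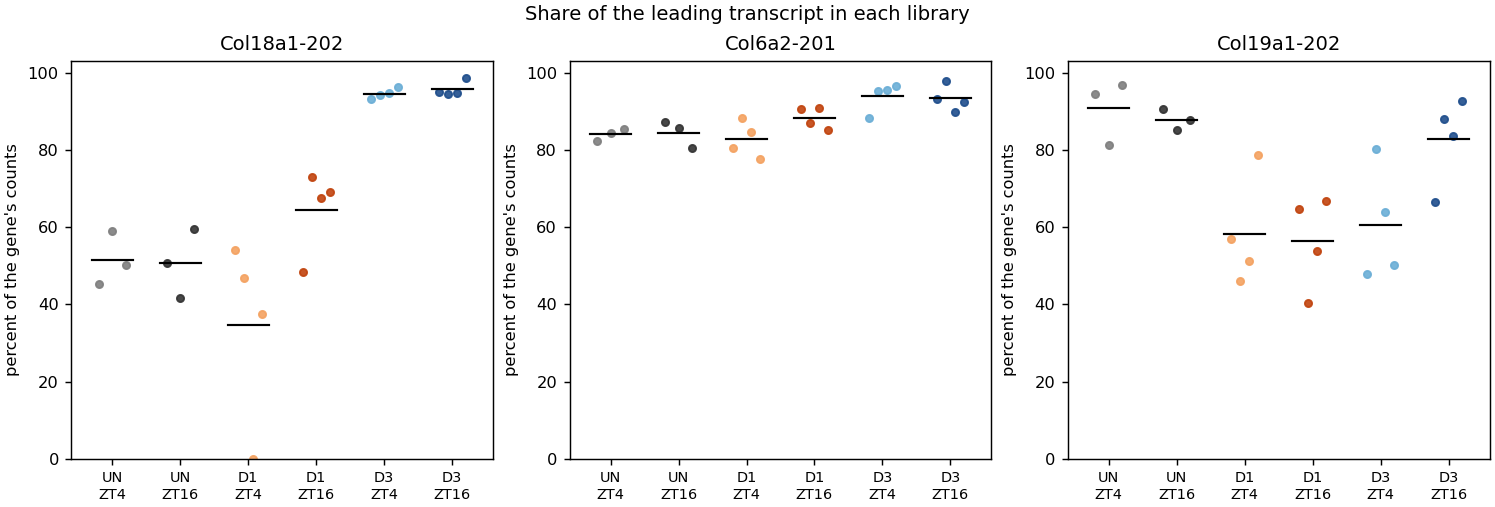
Percent of each gene's estimated counts given to its leading transcript, per library and group, with a line at the group mean. Col18a1-202 gathers between 93.3 and 98.7% in all 8 day 3 libraries, and Col19a1-202 lies between 40.4 and 78.8% at day 1.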

How the data were processed

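Per the labels' protocols, RNA of fixed, sorted cells was taken with a kit for fixed tissue and made into libraries with SMART-seq v4. The build mm10, RSEM 1.3.3, STAR 2.5.2, Trimmomatic 0.33 and DESeq2 are named in the submitters' processing notes, without their roles. The annotation version is not given in the sources used here. The deposited tables hold, per transcript, RSEM's expected counts, TPM, FPKM and the percent of the gene's abundance, as made by the authors. FPKM and the authors' percent were not used. Here expected counts were summed per gene and rounded, and 42462 of 43430 genes matched GENCODE M21 (GRCm38). Genes were filtered with filterByExpr (minimum count 10, minimum total 15), scaled by TMM (factors 0.942 to 1.094) and tested with edgeR 4.0.16 in R 4.3.3. Transcript shares were tested with scipy's exact permutation test. DESeq2 1.42.0, limma 3.58.1 and the other alternatives are in the closing section.

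The collagen genes, classes, lists and markers were chosen with earlier results of these data known. Collagen genes with a group mean of at least 10 CPM were named with their values (21 genes), the rest by range. From each handling list the 4 genes with the smallest p at day 1 were named, with Calcr and Serpinh1. Whether counting used strand is not given, so reads of overlapping or antisense genes may be mixed. The head-to-head Col4a1 and Col4a2 share only the bases from 11312805 to 11312826 of chromosome 8.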

Additional observations from a re-analysis of the deposited data

Results flagged for a closer look

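For 4 results the difference between ZT16 and ZT4 was not the same after injury as in uninjured muscle by the interaction test. These were Col5a3 at day 1 (1.17) and at day 3 (1.16), Col6a3 at day 3 (−3.20) and Col4a1 at day 3 (−0.83), as log2 values of the injured minus the uninjured difference.

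A library far from the 3 others of its group was found in 5 of 84 groups of 4 libraries, over the 21 genes named in full. Chance gives about 1 in 20 groups. Col18a1 had 155 CPM in day 3 ZT4 replicate 1, against 136 to 139 CPM in the others. Col3a1 had 662 CPM in day 1 ZT4 replicate 2, against 526 to 546 CPM. Col4a1 had 44.1 CPM in day 3 ZT4 replicate 1, against 52.3 to 53.4 CPM. Col5a2 had 174 CPM in day 3 ZT16 replicate 4, against 192 to 194 CPM. Col8a1 had 19.9 CPM in day 1 ZT4 replicate 3, against 29.9 to 31.0 CPM.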

How the results depend on the processing

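The counts of collagen genes called at day 1 and day 3 against uninjured and at day 3 against day 1 stayed within 1.5 times in all alternatives, with ranges of 24 to 26, 24 to 27 and 25 to 27 when single libraries were left out. No call changed its direction. For ZT16 against ZT4 in uninjured muscle the 3 calls became 7 with no filter on low counts, and 1 with limma voom or without uninjured ZT16 replicates 1 and 3, and ran from 1 to 3 without single libraries. With no filter, 1 gene was called at day 1 and 2 at day 3, and 0 without any single library. The time effect at day 1 against uninjured became 5 with no filter, 2 with DESeq2, and 0 with only the groups compared or without those 2 libraries (0 to 2 without single libraries). That at day 3 became 7 with no filter and 0 without those 2 libraries (1 to 3 without single libraries). Leaving out those 2 libraries leaves 1 in its group, assumed to vary like the others. Transcript shares gave 3 to 4 of 6 calls throughout. The cause of these moves was not tested. Same-numbered libraries of different groups did not deviate together (r from −0.096 to 0.149 over 51 pairs, median 0.011). Differently numbered ones had a median of −0.009. Low correlation cannot settle whether the numbers pair samples, since a shared mouse or batch need not leave a common deviation. With the replicate block, 24, 26, 25, 2, 0, 0, 1 and 2 collagen genes were called in the 8 comparisons in the order above, ZT16 against ZT4 at day 1 and day 3 included. Genes near 1 CPM rest on few counts, and changes there are the least precise.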
